A study of Caenorhabditis elegans with 8 samples.

Results

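A set of 10 genes of the dense core vesicle pathway were followed through 8 RNA sequencing libraries of sorted Caenorhabditis elegans neurons. They were taken by name from the deposited gene table and are 10 of its 46748 genes. They are egl-3, sbt-1, egl-21, pghm-1 and pamn-1, which process neuropeptides, ida-1, hid-1, unc-108 and cab-1, which belong to the vesicle or to its formation, and unc-31, which acts at release. All 10 passed the filter on low counts, as did 11378 genes of the table in all.

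Neurons make peptide messengers as long precursors that enter the secretory pathway and are packed into dense core vesicles at the Golgi. Inside the maturing vesicle a proprotein convertase cleaves the precursor, a carboxypeptidase trims the exposed basic residues, and amidating enzymes turn a terminal glycine into the amide that many active peptides carry. The vesicles are then moved by kinesin along axons and release their cargo through a calcium-triggered fusion step that uses CAPS in addition to the SNARE proteins shared with synaptic vesicles.

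The worms were of strain OH10689 and untreated, and all carried otIs355 [rab-3(prom1)::2xNLS-TagRFP] IV, a transgene that puts a red fluorescent protein into nuclei under a promoter of the synaptic vesicle gene rab-3. Cells were collected by fluorescence-activated sorting, so the neurons are those in which this promoter was active and that survived dissociation. Total RNA of 4 samples went into 4 SoLo Ovation libraries and, from the same RNA, into 4 SMARTseq V4 libraries finished with Nextera XT, and the numbers 1 to 4 name the RNA sample in both kits. As background, SMARTseq V4 primes cDNA on the poly(A) tail, while SoLo does not depend on it and removes ribosomal RNA fragments. The labels leave unsaid whether the RNA samples were separate cultures or separate sorts, and p-values therefore reflect only how these samples varied, which may be technical.

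Library totals lay between 2354681 and 7099497 counts. Levels are given as CPM, the reads of a gene per 1000000 reads of its library, scaled by the TMM method of edgeR, and the lowest read count of any of the 10 genes in a library was 91. The 9 pan-neuronal marker genes listed were all detected, with summed levels of 4318 to 4877 CPM in SoLo and 2301 to 2442 CPM in SMARTseq. Of these markers 7 were called higher in SoLo and 0 lower (edgeR, adjusted p under 0.05). Of all genes tested, 20.0% were called higher and 27.6% lower. The neuronal gene rab-3 had 1261 to 1460 CPM in SoLo and 519 to 788 CPM in SMARTseq, while the 6 intestinal genes listed summed to 138 to 227 CPM in SoLo and 25.6 to 51.9 CPM in SMARTseq, with their defining members elt-2 and ges-1 between 0 and 2.17 CPM. The 7 muscle genes listed summed to 5941 to 7405 CPM in SoLo and 3873 to 5346 CPM in SMARTseq, with 4 called higher in SoLo and 2 lower. Most of that sum was the body wall myosin gene unc-54, at 5182 to 6899 CPM in SoLo and 3195 to 4846 CPM in SMARTseq. It had 18697 to 25774 reads in SoLo and 17771 to 18810 in SMARTseq. The listed muscle gene myo-3 had only 142 to 266 reads in SoLo and 26 to 75 in SMARTseq. The sum thus rests mainly on 1 gene, and the source of the unc-54 reads was not tested. The libraries of RNA sample 1 stood apart in both kits. A chi-square of their counts per degree of freedom against the other libraries of the kit was 29.8 to 32.5 in SoLo and 87 to 98.1 in SMARTseq, while among samples 2 to 4 it was 2.29 to 3.43 in SoLo and 9.43 to 11.6 in SMARTseq. In such bulk libraries, fewer cells of a type and less RNA per cell cannot be told apart.

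The kits gave the 10 genes in different proportions. With the quasi-likelihood test of edgeR and an adjusted p under 0.05, 4 genes were called higher in SoLo (unc-31, hid-1, pamn-1 and unc-108), 5 lower (pghm-1, cab-1, sbt-1, egl-21 and ida-1), and egl-3 was not called. Of all 11378 genes tested, 47.6% were called, and of the 3127 genes with a mean of at least 50 CPM, which includes all 10, 62.2% were called. By direction, 20.0% of all genes tested were called higher and 27.6% lower. The median log2 fold change of SoLo over SMARTseq was -0.04 over the 10 genes and 0.01 over all genes tested. In 7 of the 10 genes the 4 SoLo and the 4 SMARTseq libraries did not overlap, against 46.2% of all genes tested and 59.1% of those averaging at least 50 CPM.

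**Figure D1:**
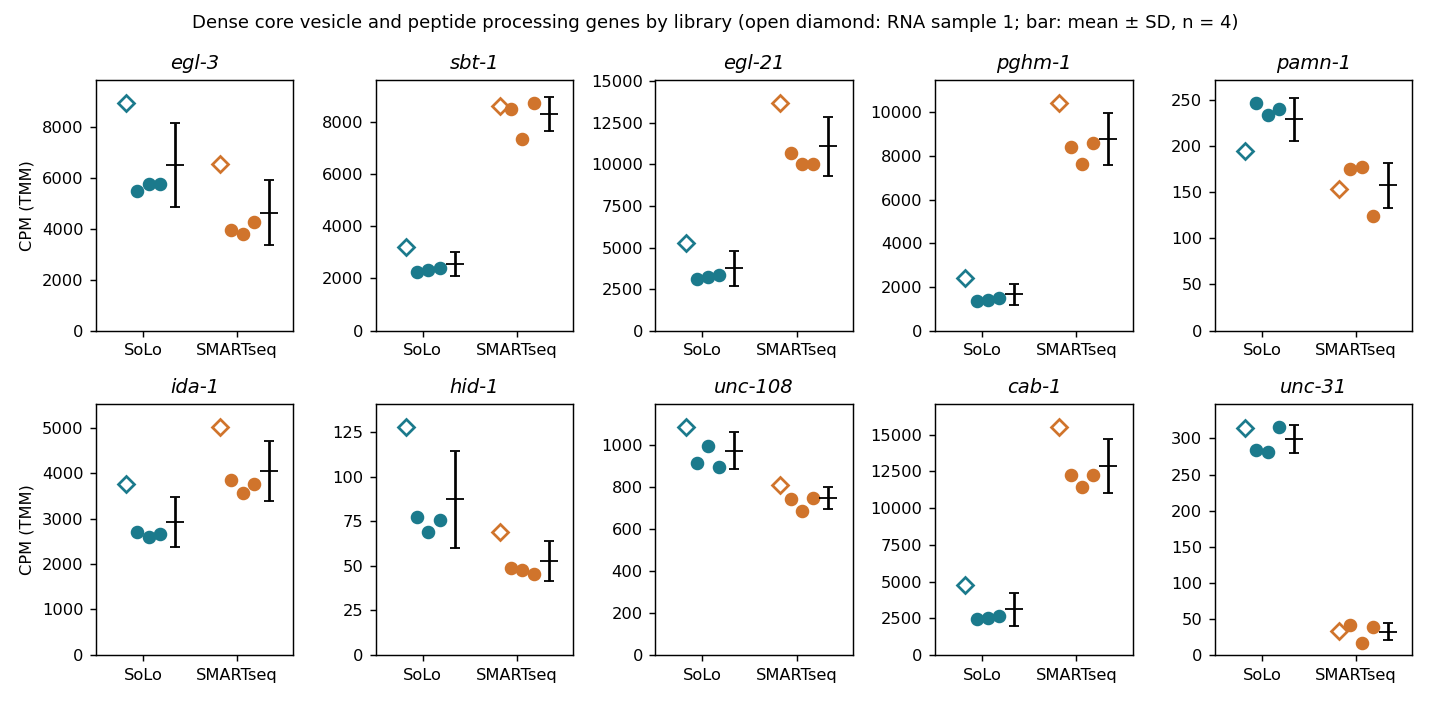
Level of each gene in CPM in the 4 SoLo (left) and 4 SMARTseq libraries, with RNA sample 1 as an open diamond, samples 2 to 4 as filled points and the mean ± SD as a black bar. The genes pghm-1, cab-1, sbt-1 and egl-21 sit lower in every SoLo library, unc-31 sits higher (281 to 316 CPM in SoLo, 16.1 to 41.1 CPM in SMARTseq), and egl-3, ida-1 and hid-1 overlap between kits.

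The first cleavage enzyme, egl-3, encodes the proprotein convertase PC2 (WBGene00001172, WBcel235 chromosome V 10169177 to 10173753, minus strand, 2565 exon bases). It had 8982, 5498, 5792 and 5759.8 CPM in SoLo libraries 1 to 4, against 6562, 3965, 3797 and 4262 CPM in SMARTseq libraries 1 to 4. Library 1 was the highest of each kit, and SMARTseq library 1 lay above SoLo libraries 2 to 4, so the kits overlapped. The mean was 6508 ± 1654 CPM in SoLo, against 4647 ± 1291 CPM in SMARTseq (SD, n = 4 each). The log2 fold change of 0.49 ± 0.22 (SE) was not called (edgeR adjusted p = 0.101). Within each RNA sample the difference was steady, with log2 ratios of 0.45, 0.47, 0.61 and 0.43 for samples 1 to 4. With the RNA sample number as a block the value was 0.49 ± 0.06 (edgeR adjusted p = 1.2e-05, in a fit that called 61.1% of all genes tested), and without RNA sample 1 it was 0.48 ± 0.06 (4.62e-05). Leaving out SMARTseq library 1 alone also brought the call, at 0.67 (edgeR adjusted p = 0.0124), as did scaling by library totals alone, at 1.03 (0.00439).

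The chaperone of that convertase differed in the other direction. The gene sbt-1 encodes the 7B2 protein, which assists the maturation of PC2 (WBGene00011392, chromosome V 20827715 to 20828881, minus strand, 791 exon bases). Its levels were 3222, 2259, 2341 and 2392 CPM in SoLo libraries 1 to 4 and 8609.6, 8506, 7348 and 8751 CPM in SMARTseq libraries 1 to 4. Every SMARTseq library lay above every SoLo library. SoLo averaged 2553 ± 449 CPM, against 8304 ± 645 CPM in SMARTseq, 3.25-fold more and a log2 difference of -1.70 ± 0.15 (edgeR adjusted p = 1.29e-05). Its last 29 exon bases are shared with grl-14 on the opposite strand, a gene with 29 reads in all SoLo and 822 reads in all SMARTseq libraries. How reads over those bases were counted is not given in the sources used here.

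The next enzyme, egl-21, is the carboxypeptidase E that removes basic residues after cleavage (WBGene00001189, chromosome IV 10478442 to 10481844, minus strand, 1696 exon bases). SoLo libraries 1 to 4 held 5282, 3089, 3243 and 3339 CPM of it and SMARTseq libraries 1 to 4 held 13728, 10704, 10011 and 9998 CPM. The kits did not overlap, and library 1 was again highest in both. The mean was 3738 ± 1034 CPM in SoLo, against 11110.4 ± 1776 CPM in SMARTseq, 2.97-fold more in SMARTseq (log2 fold change -1.57 ± 0.20, edgeR adjusted p = 0.000167). Its call was lost when the counts of RNA samples 2 to 4 were summed in each kit (-1.38, edgeR adjusted p = 0.0774), and held in those summed counts with the RNA sample as a block (-1.40, 2.8e-08).

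Because egl-3 and egl-21 act in sequence on the same precursors, their reads were also compared within each library, which needs no scaling between libraries. The ratio of egl-3 to egl-21 reads, not corrected for gene length, was 1.7, 1.78, 1.79 and 1.72 in SoLo libraries 1 to 4 and 0.478, 0.37, 0.379 and 0.426 in SMARTseq libraries 1 to 4. The convertase thus had more reads than the carboxypeptidase in each SoLo library and fewer in each SMARTseq library. The mean log2 ratios differed by 2.09 (exact two-sided permutation p = 0.0286, the smallest that 4 against 4 libraries allow, and exact sign-flip p over the 4 RNA samples = 0.125, the smallest that 4 pairs allow). RNA sample 1 did not stand apart in this ratio in SoLo. The ratio of egl-3 to sbt-1 reads, chosen after the values were seen and not tested, averaged 2.53 ± 0.177 in SoLo and 0.558 ± 0.138 in SMARTseq.

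The first step of amidation gave the largest difference towards SMARTseq among the 10 genes. The gene pghm-1 encodes a peptidylglycine alpha-hydroxylating monooxygenase (WBGene00022144, chromosome I 1808092 to 1811835, plus strand, 1168 exon bases). It had 2400.1, 1344, 1413 and 1481 CPM in SoLo libraries 1 to 4, against 10455, 8404, 7635 and 8610.3 CPM in SMARTseq libraries 1 to 4. The lowest SMARTseq library was far above the highest SoLo library. SoLo libraries averaged 1659 ± 497 CPM, against 8776 ± 1195 CPM in SMARTseq libraries, a 5.29-fold excess in SMARTseq (log2 fold change -2.40 ± 0.21, edgeR adjusted p = 1.51e-05).

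The second amidation gene, pamn-1, encodes the bifunctional monooxygenase that carries both amidation steps in 1 protein (WBGene00020556, chromosome I 5702156 to 5705553, plus strand, 1994 exon bases). Its levels were far lower, with 195, 247, 234 and 239.7 CPM in SoLo libraries 1 to 4 and 153, 175, 177 and 124 CPM in SMARTseq libraries 1 to 4. The kits did not overlap, and unlike egl-3, egl-21 and pghm-1 the gene was lowest in library 1 of SoLo. It averaged 229 ± 23.1 CPM in SoLo, against 157 ± 24.8 CPM in SMARTseq, a log2 difference of 0.54 ± 0.16 (edgeR adjusted p = 0.0197). Without SMARTseq library 4, its lowest library, the value was 0.40 and not called (edgeR adjusted p = 0.0628). Leaving out RNA sample 2, 3 or 4 from both kits gave edgeR adjusted p-values of 0.0685, 0.0666 and 0.112. With the RNA sample as a block the call held (0.55 ± 0.12, edgeR adjusted p = 0.00146). The log2 ratios were 0.35, 0.5, 0.4 and 0.96 for RNA samples 1 to 4.

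The ratio of pghm-1 to pamn-1 reads was 12.3, 5.44, 6.05 and 6.18 in SoLo libraries 1 to 4 and 68.2, 48.1, 43.2 and 69.7 in SMARTseq libraries 1 to 4. SoLo library 1 was well above the other SoLo libraries and still below every SMARTseq library. The mean log2 ratios differed by -2.99 (SoLo minus SMARTseq, exact two-sided permutation p = 0.0286, exact sign-flip p = 0.125, each the smallest possible). The ratio of pgal-1, the lyase of the second amidation step, to pghm-1 is given as a further value chosen after seeing the data. It averaged 1.28 ± 0.179 in SoLo and 1.25 ± 0.125 in SMARTseq, and the ratio was lowest in RNA sample 1 of both kits, at 1.04 in SoLo and 1.07 in SMARTseq.

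**Figure D2:**
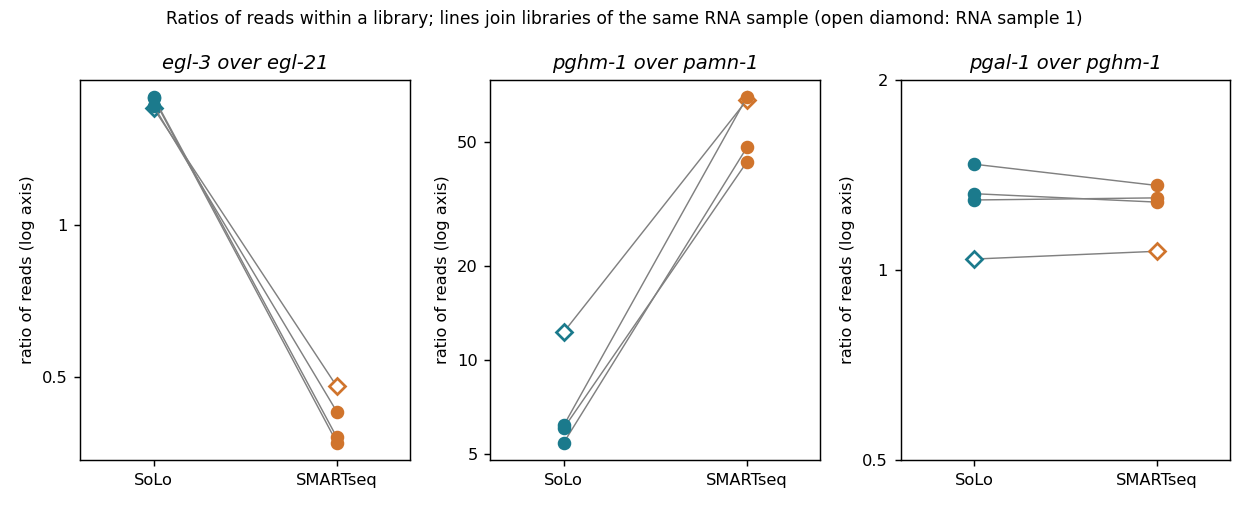
Ratios of reads between genes within each library (log axis), SoLo left and SMARTseq right, with lines joining libraries of the same RNA sample and RNA sample 1 as an open diamond. The ratio of egl-3 to egl-21 averages 1.75 in SoLo and 0.413 in SMARTseq, that of pghm-1 to pamn-1 averages 7.49 in SoLo and 57.3 in SMARTseq, and that of pgal-1 to pghm-1 averages 1.28 in SoLo and 1.25 in SMARTseq.

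Of the vesicle membrane and biogenesis genes, ida-1 encodes the IA-2 protein, a transmembrane tyrosine phosphatase-like marker of dense core vesicles (WBGene00002048, chromosome III 5755539 to 5765816, plus strand, 2591 exon bases). It had 3757, 2708, 2605 and 2667 CPM in SoLo libraries 1 to 4, against 5021, 3859.7, 3563 and 3754 CPM in SMARTseq libraries 1 to 4. SoLo library 1 lay just above SMARTseq library 4, so the kits overlapped, while within each RNA sample SoLo was lower by a similar amount, with log2 ratios of -0.42, -0.51, -0.45 and -0.49. The mean was 2934 ± 550.3 CPM in SoLo, against 4049 ± 659 CPM in SMARTseq, a log2 difference of -0.46 ± 0.17 (edgeR adjusted p = 0.0436). The direction of this gene depended on the scaling between libraries. Scaled by library totals alone the value was 0.08 ± 0.17 (edgeR adjusted p = 0.71), a scaling that moved the median of all genes tested to 0.56 from 0.01. Its call was lost in 13 of 20 alternatives, among them leaving out SoLo library 2, 3 or 4 (edgeR adjusted p = 0.144, 0.161 and 0.15) or SMARTseq library 1 or 2 (0.0676 and 0.0537), while it held with the RNA sample as a block (2.12e-05).

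The gene hid-1 encodes a peripheral Golgi protein needed for dense core vesicle cargo to be kept during maturation (WBGene00001844, chromosome X 2489048 to 2494339, plus strand, 2520 exon bases). It was the scarcest of the 10 genes in SoLo, with 128, 77.4, 69.1 and 75.5 CPM in SoLo libraries 1 to 4 and 69.1, 48.9, 47.5 and 45.5 CPM in SMARTseq libraries 1 to 4. Library 1 was the highest of each kit, and SMARTseq library 1 met the lowest SoLo library. It averaged 87.4 ± 27.1 CPM in SoLo, against 52.8 ± 11 CPM in SMARTseq (log2 fold change 0.73 ± 0.24, edgeR adjusted p = 0.0331). Without SoLo library 1 it was 0.52 and not called (edgeR adjusted p = 0.0589), and leaving out SMARTseq library 2, 3 or 4 gave 0.0857, 0.0919 and 0.0937. With the RNA sample as a block the call held (0.71 ± 0.13, edgeR adjusted p = 0.00058). The log2 ratios were 0.89, 0.66, 0.54 and 0.73 for RNA samples 1 to 4.

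The Rab2 GTPase gene unc-108, which acts in vesicle maturation at the Golgi, had the smallest called difference (WBGene00006833, chromosome I 3822883 to 3826514, plus strand, 1143 exon bases). Its 4 SoLo libraries held 1085, 912, 996 and 896 CPM and its 4 SMARTseq libraries held 809, 744, 685 and 746 CPM, in the order of RNA samples 1 to 4. All SoLo libraries were above all SMARTseq libraries. SoLo libraries had a mean of 972 ± 87 CPM, against 746 ± 50.6 CPM in SMARTseq libraries, a log2 difference of 0.38 ± 0.12 (edgeR adjusted p = 0.0267). Leaving out SMARTseq library 2, 3 or 4 ended its call, with edgeR adjusted p-values of 0.0701, 0.0894 and 0.0683. With the RNA sample as a block the call held (0.38 ± 0.08, edgeR adjusted p = 0.00108). The log2 ratios were 0.42, 0.29, 0.54 and 0.26 for RNA samples 1 to 4.

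Summed over all 8 libraries, cab-1 had the most reads of the 10 genes, although egl-3 and egl-21 had more in each SoLo library. It encodes a homologue of the vertebrate membrane protein NPDC1 that binds the Rab3 exchange factor AEX-3 (WBGene00000277, chromosome X 12199655 to 12212901, minus strand, 2012 exon bases). It had 4789, 2473, 2544 and 2670.4 CPM in SoLo libraries 1 to 4, against 15534, 12271, 11430.5 and 12257 CPM in SMARTseq libraries 1 to 4. It was the gene with the most reads of the whole table in SMARTseq library 1 and ranked 4, 3 and 3 in SMARTseq libraries 2 to 4, whereas it ranked 6, 15, 13 and 12 in SoLo libraries 1 to 4. The mean of 3119 ± 1116 CPM in SoLo was below that of 12873 ± 1817 CPM in SMARTseq by 4.13-fold (log2 fold change -2.05 ± 0.23, edgeR adjusted p = 8.17e-05), without overlap. With RNA samples 2 to 4 summed the call was lost (-1.79, edgeR adjusted p = 0.0598), and with the RNA sample as a block in those summed counts it held (-1.84, 2.45e-08). An annotated non-coding RNA inside an intron on the opposite strand, C23H4.12 (X 12202045 to 12202191), shares 0 exon bases with it and had 3 reads in all SoLo and 439 reads in all SMARTseq libraries.

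The release factor unc-31 gave the largest difference of the 10 genes, and it was higher in SoLo. It encodes CAPS, which primes dense core vesicles for calcium-triggered fusion (WBGene00006767, chromosome IV 12773867 to 12788354, plus strand, 19 annotated transcripts, 5237 exon bases). It had 315, 284, 281 and 316 CPM in SoLo libraries 1 to 4, against 33.4, 41.1, 16.1 and 39.0 CPM in SMARTseq libraries 1 to 4. SMARTseq library 3 was the lowest, with 91 reads, and no SMARTseq library came near the SoLo range. The mean was 299 ± 19 CPM in SoLo, against 32.4 ± 11.4 CPM in SMARTseq, 9.24-fold higher in SoLo (log2 fold change 3.21 ± 0.28, edgeR adjusted p = 1.53e-05). By RNA sample the log2 ratio was 3.24, 2.79, 4.13 and 3.02 for samples 1 to 4. Of the 3 snRNA genes inside its span on the same strand, which share 0 exon bases with it, ZK897.3 had the most reads, 45 in all SoLo and 0 in all SMARTseq libraries.

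Taken per length, the kits ordered the 10 genes differently (CPM per kilobase of annotated exon). In SoLo the order from high to low was sbt-1, egl-3, egl-21, cab-1, pghm-1, ida-1, unc-108, pamn-1, unc-31 and hid-1. Their levels ran from 3228 ± 567 CPM per kilobase for sbt-1 to 34.7 ± 10.8 for hid-1. Neighbours in that order overlapped in their library values from sbt-1 down to ida-1, and none overlapped from ida-1 on. In SMARTseq the order was sbt-1, pghm-1, egl-21, cab-1, egl-3, ida-1, unc-108, pamn-1, hid-1 and unc-31, with levels from 10498 ± 815 to 6.19 ± 2.17 CPM per kilobase. There pghm-1 and egl-21, egl-21 and cab-1, and egl-3 and ida-1 overlapped, and the other neighbours did not.

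The convertase egl-3 therefore stood second in SoLo, at 2537 ± 645 CPM per kilobase, and below the carboxypeptidase, the hydroxylating monooxygenase and cab-1 in SMARTseq, at 1812 ± 503. Among the 10633 tested protein-coding genes, egl-3 ranked 7 per kilobase in SoLo and 73 in SMARTseq. The chaperone gene sbt-1 ranked 4 in both kits. The monooxygenase gene pghm-1 ranked 27 in SoLo and 9 in SMARTseq, and unc-31 ranked 1609 in SoLo and 7610 in SMARTseq.

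**Figure D3:**
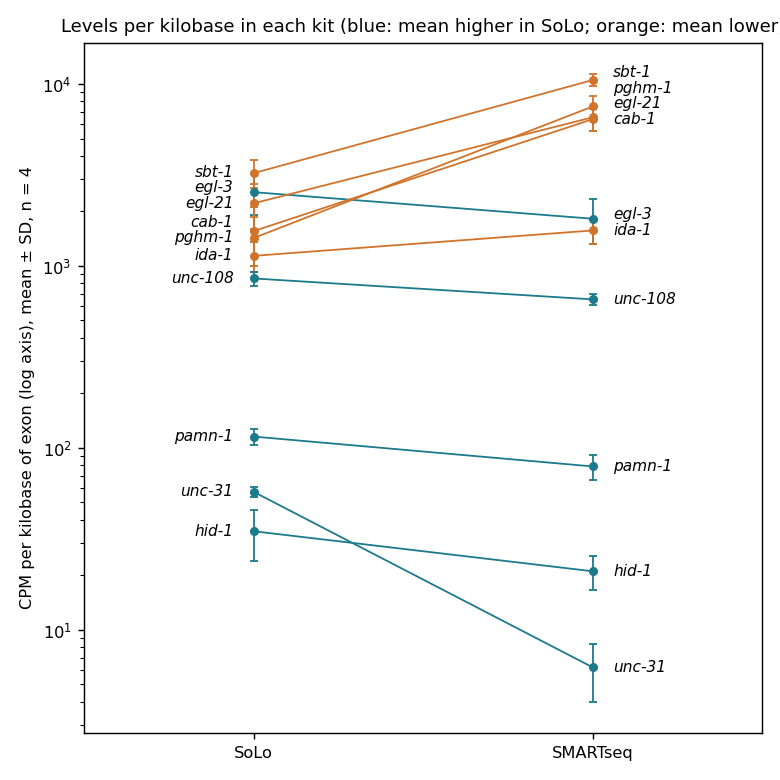
Mean level in CPM per kilobase of exon (log axis) ± SD over 4 libraries, SoLo left and SMARTseq right, with 1 line per gene, blue where the SoLo mean was higher and orange where it was lower. The line of egl-3 crosses those of pghm-1, egl-21 and cab-1, and the line of unc-31 falls below that of hid-1, at 6.19 and 20.9 CPM per kilobase in SMARTseq.

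Together the 10 genes took a smaller share of reads in SoLo. They held 3.64%, 2.25%, 2.34% and 2.35% of all counts in SoLo libraries 1 to 4 and 5.02%, 3.86%, 3.76% and 4.0% in SMARTseq libraries 1 to 4. The kits did not overlap, although SoLo library 1 came close to SMARTseq library 3. The means of 2.65% ± 0.668 in SoLo and 4.16% ± 0.58 in SMARTseq differed by -1.52 percentage points (SD, n = 4 each, exact two-sided permutation p = 0.0286, exact sign-flip p = 0.125, each the smallest possible). Without cab-1, which had the most reads of the 10 over all libraries, the difference was -0.833 points (exact permutation p = 0.114), and over protein-coding counts alone it was -1.36 points (exact permutation p = 0.0857). Over the TMM-scaled library sizes it was -2.86 points (exact permutation p = 0.0286). Leaving out any SMARTseq library gave an exact permutation p of 0.0571, with differences of -1.23 without library 1 to -1.65 without library 3. Each of cab-1, pghm-1, egl-21 and sbt-1 took a smaller share of counts in every SoLo library than in any SMARTseq library, while egl-3 took a larger one, 0.779% ± 0.205 in SoLo against 0.381% ± 0.107 in SMARTseq.

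The exon length of a gene went along with the kit difference over all genes, so the values were also set against that trend. Over 10633 protein-coding genes, a smoothed line of the log2 fold change lay at -0.68 for the 791 exon bases of sbt-1 and at 0.68 for the 5237 exon bases of unc-31. Relative to the line, sbt-1 was at -1.03, egl-21 at -1.41, pghm-1 at -1.78 and cab-1 at -2.03. On the other side unc-31 was at 2.53 and the short gene unc-108 at 1.02. Each of the 9 called genes among the 10 kept its sign after subtraction of the line. The genes egl-3 and ida-1, of nearly equal length (2565 and 2591 exon bases), had a line of 0.21 each and lay at 0.28 and -0.68 relative to it. These differences from the line are descriptions and were not tested.

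The other genes of the pathway were listed by role, and 28 of 29 were matched in the table and tested. In all 14 were called higher in SoLo, 4 lower and 10 not, where 20.0% of all genes tested were called higher and 27.6% lower. The median log2 fold change was 0.55 over the 28 genes and 0.01 over all genes tested. Among 6 other processing genes, 2 were called higher, 1 lower and 3 not, with a median of 0.74. The lower one, pgal-1, the amidating lyase, had 2487, 1970.3, 1869 and 1917 CPM in SoLo libraries 1 to 4, against 11205, 11417, 9778 and 11210.5 CPM in SMARTseq libraries 1 to 4. Its log2 fold change of -2.40 ± 0.13 (edgeR adjusted p = 1.22e-06) was the same to 2 decimals as that of pghm-1, the other single-step amidating enzyme. The kex2-like convertase gene aex-5 averaged 512 ± 43.0 CPM in SoLo, against 131 ± 37.5 CPM in SMARTseq (1.96 ± 0.20, edgeR adjusted p = 4.16e-05), although 10.07% of its exon bases are shared with genes on the opposite strand. The convertase gene bli-4 was higher in SoLo by 1.39 ± 0.30 (0.00431). The convertase gene kpc-1 had 291 ± 19.5 CPM in SoLo, against 272 ± 45.5 CPM in SMARTseq and was not called, nor were the carboxypeptidase D genes cpd-1 and cpd-2, of which cpd-1 was called with the RNA sample as a block (1.97 ± 0.73, edgeR adjusted p = 0.0332).

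Of 10 other biogenesis genes tested, 3 were called higher in SoLo, 2 lower and 5 not, with a median log2 fold change of 0.26. These counts are near the shares of all genes tested, of which 20.0% were called higher and 27.6% lower. The 3 higher ones act with Rab2, the GTPase that unc-108 encodes, and so does the lower gene ric-19. The RUN domain gene rund-1 differed by 1.49 ± 0.26 (edgeR adjusted p = 0.0012), the coiled-coil gene cccp-1 by 1.14 ± 0.21 (0.00182) and the Rab2 GTPase-activating gene tbc-8 by 0.58 ± 0.18 (0.0227, and 0.0626, 0.0732 and 0.0581 without SMARTseq library 2, 3 or 4). Lower in SoLo was ric-19, the homologue of the islet autoantigen ICA69 and likewise a Rab2 effector, with 90.8 ± 5.58 CPM in SoLo, against 581 ± 49.0 CPM in SMARTseq (-2.68 ± 0.13, 7.98e-07). The tethering complex gene vps-51 was lower by -2.33 ± 0.40 (0.00103), with RNA sample 1 at 18.6 CPM in SoLo, where samples 2 to 4 had 40.8 to 49.3 CPM, and at 85.2 CPM in SMARTseq, where they had 195 to 265 CPM. Its complex partners vps-52, vps-53 and vps-54 were not called. The listed gene vps-50 was not analysed here.

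Of 12 genes of transport and release, 9 were called higher in SoLo, 1 lower and 2 not, with a median log2 fold change of 0.71. Of all genes tested, 20.0% were called higher and 27.6% lower. All 12 averaged at least 50 CPM, and of the 3127 genes tested at that level 62.2% were called in either direction. The lists are not independent, since unc-104, unc-64, ric-4 and snb-1 are also among the pan-neuronal markers, of which 7 of 9 were called higher. The syntaxin gene unc-64 led with 597 ± 100.4 CPM in SoLo, against 44.3 ± 7.25 CPM in SMARTseq (3.75 ± 0.19, edgeR adjusted p = 8.6e-07). The protein kinase C gene pkc-1 differed by 2.16 ± 0.17 (8.42e-06) and aex-3, the Rab3 exchange factor that CAB-1 binds, by 1.27 ± 0.15 (0.0001). The SNARE genes ric-4 (SNAP-25) and snb-1 (synaptobrevin) differed by 1.12 ± 0.15 and 0.60 ± 0.13, and the priming gene unc-13 and the tomosyn gene tom-1 by 0.82 ± 0.17 and 0.91 ± 0.17. The kinesin gene unc-104 differed by 0.58 ± 0.17 (0.0188, and 0.0678 and 0.0658 without SMARTseq library 2 or 4) and the Rab27 gene aex-6 by 0.42 ± 0.15 (0.0426). That of aex-6 was not called without any of SoLo libraries 2 to 4 or any SMARTseq library, with edgeR adjusted p-values between 0.0635 and 0.103. Leaving out RNA sample 2, 3 or 4 from both kits likewise ended the calls of tbc-8, unc-104 and aex-6 (edgeR adjusted p = 0.06 to 0.19). Leaving out RNA sample 3 ended that of snb-1 (0.0548). With the RNA sample as a block these calls held (edgeR adjusted p = 0.000572 for tbc-8, 0.000215 for unc-104, 0.0048 for aex-6 and 0.000118 for snb-1). Against the rest, the rabphilin gene rbf-1 had 554 ± 66.7 CPM in SoLo, against 1206 ± 216 CPM in SMARTseq (-1.12 ± 0.16, 0.000363). The Munc18 gene unc-18 (0.42 ± 0.17, edgeR adjusted p = 0.0616) was called with the RNA sample as a block (0.43 ± 0.08, 0.000708) and without SoLo library 1 (0.56, 0.0157) or SMARTseq library 4 (0.49, 0.0471), and arl-8 was not called. Relative to the length line, unc-104 lay at -0.13 and unc-13 at -0.01, whereas the other genes called higher in this list stayed positive.

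**Figure D4:**
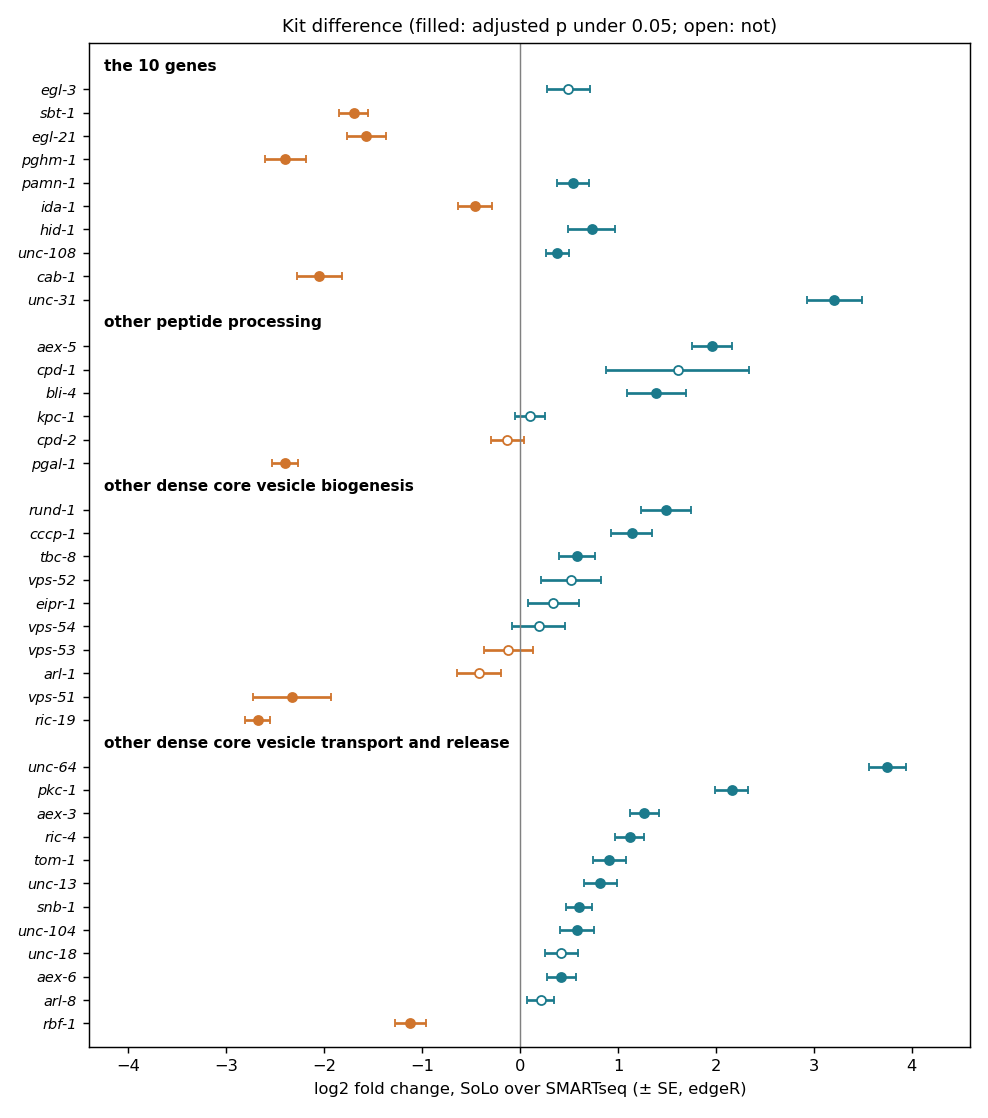
Log2 fold change of SoLo over SMARTseq ± SE from edgeR for the 10 genes and the 28 other pathway genes tested, with filled points for an adjusted p under 0.05 and positive values higher in SoLo. The 10 genes spread from -2.40 for pghm-1 to 3.21 for unc-31, and 9 of the 12 transport and release genes are filled and positive.

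RNA sample 1 stood above samples 2 to 4 in both kits for 7 of the 10 genes, where 24.4% of all genes tested did so. Its level over the mean of samples 2 to 4 was 1.87 in SoLo and 1.3 in SMARTseq for cab-1, 1.73 in SoLo and 1.46 in SMARTseq for hid-1, 1.7 in SoLo and 1.27 in SMARTseq for pghm-1, and 1.58 in SoLo and 1.64 in SMARTseq for egl-3. The excess was at least 1.5-fold for 5 genes in SoLo, against 19.4% of all genes, and for 1 gene, egl-3, in SMARTseq, against 25.0% of all genes. In contrast pamn-1 was at 0.814 in SoLo and 0.968 in SMARTseq, and unc-31 at 1.07 in SoLo and 1.04 in SMARTseq. These ratios come from 1 RNA sample and have no test.

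Markers of other cells also moved with RNA sample 1, and their part in its higher levels was not tested. The summed level of 6 hypodermis and cuticle genes was 78.4 CPM in SoLo library 1, where SoLo libraries 2 to 4 had 181 to 217 CPM, and 242 CPM in SMARTseq library 1, where SMARTseq libraries 2 to 4 had 1511 to 2061 CPM. The 4 glial genes summed to 49.3 CPM in SoLo library 1, against 11.8 to 16.4 CPM in the other SoLo libraries, and to 88.0 CPM in SMARTseq library 1, against 22.1 to 32.1 CPM in the others. The cuticle sum was thus lowest and the glial sum highest in library 1 of each kit, and the intestinal and coelomocyte sums were also highest there. The cuticle sum of SMARTseq libraries 2 to 4 was mostly dpy-13, with 6478, 6005 and 3953 reads, against 103 in SMARTseq library 1. The glial sum of SMARTseq library 1 came mostly from mls-2, with 480 reads, against 5 for ptr-10, 6 for fig-1 and 23 for lin-48. The gene ptr-10 had more reads in SMARTseq library 3, at 19, so the glial genes did not move as a group in SMARTseq. Intestinal genes summed to 227 CPM in SoLo library 1, where SoLo libraries 2 to 4 had 138 to 169.8 CPM, and to 51.9 CPM in SMARTseq library 1, where SMARTseq libraries 2 to 4 had 25.6 to 33.0 CPM. Coelomocyte genes summed to 5.82 CPM in SoLo library 1 and to 36.6 CPM in SMARTseq library 1. Neither list moved as a whole. The intestinal gene ges-1 had 0 CPM in SMARTseq library 1, and elt-2 and ges-1 were highest in SoLo library 3, at 0.966 and 2.17 CPM. Most intestinal reads of SoLo library 1 were of vit-2 and vit-6, at 441 and 342. The coelomocyte gene unc-122 was lowest in SoLo library 1, with 1 read, beside 13 for cup-4 and 7 for lgc-26. In the other direction, the germline sum was the lowest of its kit in library 1 of both kits, at 96.2 CPM against 144 to 179 CPM in the other SoLo libraries, and below the 202 to 275 CPM of the other SMARTseq libraries. The muscle sum of 5941 CPM in SoLo library 1 lay below the 6793 to 7405 CPM of the other SoLo libraries, whereas in SMARTseq library 1 it lay within the range of the other SMARTseq libraries, at 4028 CPM against 3873 to 5346 CPM. The pan-neuronal sum of 4347 CPM in SoLo library 1 and 2308 CPM in SMARTseq library 1 lay within the range of samples 2 to 4. That range was 4318 to 4877 CPM in SoLo and 2301 to 2442 CPM in SMARTseq. Single genes of that sum nevertheless moved, in different directions. In SMARTseq library 1, rab-3 was lower, at 519 CPM against 743 to 788 CPM in the other SMARTseq libraries. There unc-10 had 2939 reads, against 851 to 1229 in the other SMARTseq libraries. Relative to the mean of samples 2 to 4, unc-64 was at 0.774 in SoLo and 0.781 in SMARTseq. In the same order of kits, ric-4 was at 0.81 and 0.826, snb-1 at 0.894 and 0.858, and unc-104 at 1.38 and 1.27. Without RNA sample 1 in either kit, 5 of the 10 genes were called higher, egl-3 among them, and 5 lower (edgeR, 58.3% of 11479 genes tested were called). The values were then 3.20 for unc-31, -2.56 for pghm-1, -2.25 for cab-1, -1.84 for sbt-1 and -1.69 for egl-21. Leaving out RNA sample 2, 3 or 4 from both kits instead ended the calls of ida-1, hid-1, unc-108 and pamn-1. The edgeR adjusted p-values were then between 0.135 and 0.171 for ida-1 and between 0.0846 and 0.101 for hid-1. They were between 0.0768 and 0.158 for unc-108 and between 0.0666 and 0.112 for pamn-1.

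**Figure D5:**
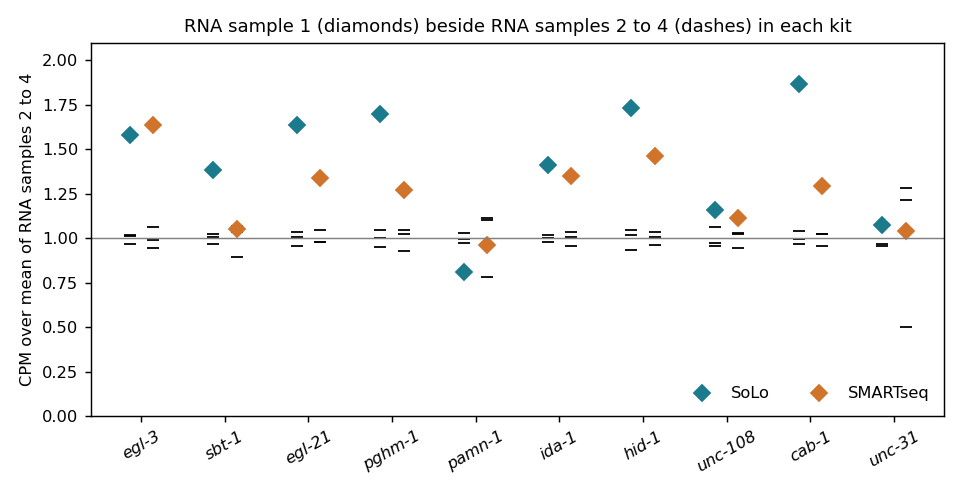
Level of RNA sample 1 (diamonds, SoLo left of SMARTseq for each gene) and of RNA samples 2 to 4 (dashes), each divided by the mean of samples 2 to 4 of the same kit. The diamond of cab-1 lies at 1.87 in SoLo and 1.3 in SMARTseq, and those of unc-31 lie at 1.07 in SoLo and 1.04 in SMARTseq.

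Profiles over the 8 libraries were compared among the 3127 genes with a mean of at least 50 CPM, as the root mean square difference of log2(CPM + 1) centred on each gene's own mean. Nearest to egl-3 were F14F11.2 (0.0674), chd-3 (0.0858) and dmsr-3 (0.0913). Their log2 fold changes of SoLo over SMARTseq were 0.46, 0.41 and 0.46, beside 0.49 for egl-3. Nearest to egl-21 were pdf-1 (0.105), ins-18 (0.109) and tyra-3 (0.116). Their log2 fold changes were -1.52, -1.49 and -1.54, beside -1.57 for egl-21. The profiles span both kits, so genes with a like kit difference lie close together, and co-expression was not tested. The gene pdf-1 averaged 1867 ± 391 CPM in SoLo, against 5357 ± 493 CPM in SMARTseq. Among the 10 genes themselves the closest pairs were egl-3 with hid-1 (0.148), egl-21 with sbt-1 (0.157) and pghm-1 with cab-1 (0.177), whereas egl-3 and its chaperone gene sbt-1 were 1.12 apart.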

How the data were processed

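The table deposited by the authors holds unnormalised read counts, with a row for each gene and a column for each library. The submitters' processing notes name STAR, SAMtools, featureCounts and WBcel235. What each did, how strand and multiply aligned reads were handled, whether molecular identifiers were used, and which annotation was counted is not given in the sources used here. Precision follows from library totals of 2354681 to 7099497 counts, and reads without molecular identifiers are not independent molecules.

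The 10 genes and the pathway and marker lists were chosen with earlier results of these data known. All 10 genes are named, and other pathway genes where called or abundant. Genes most like egl-3 and egl-21 are the 3 with the smallest profile difference.

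Counts were tested with edgeR 4.0.16 in R 4.3.3 (TMM, filterByExpr by kit, quasi-likelihood test, no block, Benjamini-Hochberg over 11378 genes), called at an adjusted p under 0.05, after tests on simulated data. Each standard error was approximated as the size of the log2 fold change divided by the root of its F statistic. Log2 ratios of reads used 0.5 added reads. Shares and ratios were compared by exact permutation over 70 splits. The length trend is a lowess line (fraction 0.3). Genes, positions (1-based) and exon lengths came from Ensembl release 115 of WBcel235, with names matched for 42619 of 46748 genes, which held 95.7% of counts.

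The numbers pair the libraries because the study's design divided each RNA sample between kits. Deviations from the kit means correlated at 0.83, 0.51, 0.50 and 0.47 for same-numbered libraries 1 to 4 over 7626 genes, and at 0.3 to 0.48 between different numbers among 2 to 4, so the values alone do not single out the pairs 3 and 4. Alternatives were other size factors, DESeq2 1.42.0, other filters, the block, libraries left out and RNA samples 2 to 4 summed.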

Additional observations from a re-analysis of the deposited data

Results flagged for a closer look

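In 26 sets of 4 libraries (the levels of each of the 10 genes, their share of counts and the log2 ratios of reads, by kit), the gap between the extreme library and its nearest neighbour was divided by the whole range of the set. In 11 of them it passed the 95% critical value for 4 samples, which chance alone passes in about 1 in 20 sets. In all 11 the extreme library was the highest and came from RNA sample 1, 9 times in SoLo and 2 times in SMARTseq. The sets share libraries and are not independent.

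Among the processing genes, the gap took 0.916 of the range for egl-3 in SoLo and 0.832 in SMARTseq, 0.862 for sbt-1, 0.886 for egl-21 and 0.87 for pghm-1, the last 3 in SoLo. Among the vesicle genes it took 0.911 for ida-1 and 0.915 for cab-1 in SoLo, and for hid-1 0.859 in SoLo and 0.856 in SMARTseq. For the share of counts in the 10 genes in SoLo it was 0.931, and for the log2 ratio of pghm-1 to pamn-1 reads in SoLo it was 0.843. No set of unc-31, pamn-1 or unc-108 levels passed the critical value.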

How the results depend on the processing

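Of 200 values of the 10 genes under 20 alternatives, 160 kept direction and call, 34 lost a call, 5 gained one and 1 turned its direction, which was ida-1 under library totals alone (0.077). The calls of sbt-1, unc-31 and pghm-1 held under all 20. The replicate block gave 5 higher and 5 lower of the 10 genes, adding egl-3, and 3290 higher and 3664 lower of all genes, and changed no other call among the 10. Of the other pathway genes it added the calls of unc-18 and cpd-1. With RNA samples 2 to 4 summed, 1 of the 10 genes was called higher and 2 lower, and 490 and 851 of all genes, with the spread then resting on 2 values per kit. With the replicate block, those summed counts gave 5 and 5 of the 10 genes, and 3310 and 3758 of all genes. Library totals alone called 4318 genes higher in SoLo, 64.4% of calls against 42% under TMM. Leaving out libraries gave 1 to 5 of the 10 genes higher and 4 to 5 lower, and 1472 to 3005 and 2414 to 3691 of all genes. The share of counts differed by -1.85 to -1.23 points on leaving out a library, by -1.36 over protein-coding counts, by -2.86 over TMM-scaled library sizes and by -0.833 without cab-1. The log2 ratio differences ran from 2.04 to 2.16 for egl-3 over egl-21 and from -3.25 to -2.86 for pghm-1 over pamn-1. Of the pathway gene values, 509 kept direction and call, 35 lost a call and 15 gained one, and 4 uncalled genes (arl-1, cpd-2, vps-53 and vps-54) changed sign in some alternative. The causes of these changes were not tested. The lowest read count among the 10 genes was 91, for unc-31 in SMARTseq library 3, and among the other pathway genes cpd-1 had 1 read in each of SMARTseq libraries 3 and 4.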
